A study of Mus musculus with 12 samples.

Results

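Amino acid transporters were followed through the atria and ventricles of a mouse heart model of myotonic dystrophy type 1, the disease caused by an expanded CTG repeat in DMPK. The genes were taken by a rule on their names, set with earlier results of these data known. They are the members of solute carrier families SLC1, SLC6, SLC7, SLC36, SLC38 and SLC43 that end in a plain family number, together with the heavy chains Slc3a1 and Slc3a2. The rule took 61 of the 51826 gene entries in the count table, and all 61 are protein coding genes in the mouse GRCm38 annotation. A further 6 symbols of these families, such as Slc6a20a and the opposite-strand entry Slc7a6os, fell outside the rule.

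The data comprise 12 poly(A) RNA-Seq libraries, 1 for each chamber of 6 mice. Of these, V119, V120 and V123 were CUG960 +dox, whereas V327, V333 and V334 were MHCrtTA +dox controls, so that each of the 4 groups held 3 libraries. All 6 mice were FvB females aged 10 weeks on doxycycline from postnatal day 1. CUG960 mice were TREDT960I(H)/MHCrtTA(hemi), that is, homozygous for a tetracycline-responsive transgene with 960 interrupted CUG repeats within human DMPK sequence. Controls were MHCrtTA(hemi) and lacked the repeat transgene. Both groups therefore carried the reverse transactivator, which an alpha myosin heavy chain promoter drives in cardiomyocytes, and both received doxycycline. The tissue was whole, so a level pools every cell type present, and fewer cells of a type cannot be told apart from less RNA per cell. The total count per library ranged from 116127966 to 160676189.

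Cells take up amino acids through carriers that use the sodium gradient, a proton gradient or exchange against another amino acid. SLC38 and SLC6 proteins are mostly sodium-coupled importers, SLC1 proteins carry glutamate or exchange small neutral amino acids, SLC36 proteins move small amino acids with protons, and the SLC7 light chains pair with the heavy chain CD98 (Slc3a2) to exchange large neutral or cationic amino acids. Heart muscle takes up glutamine and glutamate as fuel and nitrogen stores and concentrates taurine and creatine, and the families named here also hold the carriers for taurine, creatine, monoamines and, in Slc43a3, purine nucleobases.

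The atrial libraries carried atrial markers and the ventricular libraries ventricular ones. The summed level of 6 atrial cardiomyocyte markers, of which Nppa was the most abundant, was 21795 to 28929 CPM (counts relative to the TMM-scaled size of the library) in the 6 atrial libraries and 84.6 to 319 CPM in the 6 ventricular libraries. The 6 ventricular markers, led by Myl2, summed to 17766 to 22509 CPM in ventricles and 1306 to 1693 CPM in atria. The chambers did not overlap on either sum. The atria of control V334 stood apart in the 3 erythroid markers, led by Hbb-bs, at 2663 CPM against 310 to 495 CPM in the other 5 atrial libraries, and in the 9 macrophage and leukocyte markers, led by Lyz2, at 636 CPM against 288 to 375 CPM. Mitochondrially encoded genes took 10.9% to 12.2% of the counts in atria, 19.6% to 20.5% in control ventricles and 15.3% to 18.4% in CUG960 ventricles.

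Of the 61 transporter genes, 42 had enough counts to be tested in at least 1 comparison, and 37 of these could be tested between genotypes in both chambers. The remaining 19 never exceeded 11 counts in a library. Slc6a5, a neuronal glycine carrier, and Slc7a12, a light chain, were at 0 in all 12 libraries. Slc3a1, the heavy chain of the kidney and gut cystine carrier, had 0 to 9 counts, whereas Slc3a2 (chr19:8706882-8723369, minus strand), the heavy chain that takes most SLC7 light chains to the plasma membrane, had 3256 to 10247. Summed over the 61 genes, transporter RNA stood at 1150 to 1284 CPM in the 6 atrial libraries and 1025 to 1141 CPM in the 6 ventricular libraries.

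A few carriers made up most of the pool. Levels of different genes were compared as CPM per kilobase of annotated exon. Averaged over the 6 control libraries, which pools chambers that differed in many of these genes, the 8 highest held 72.3% of the summed per-kilobase level. They were the creatine carrier Slc6a8 at 29.7, Slc38a10 at 29.7, the small neutral amino acid importer Slc38a2 at 16.5, the taurine carrier Slc6a6 at 14.7, the purine nucleobase carrier Slc43a3 at 13.5, the light chain Slc7a7 at 13.3, the proton-coupled glycine and proline carrier Slc36a2 at 12.9 and Slc3a2 at 12.4 CPM per kilobase.

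The order differed by chamber. In control atria Slc38a10 ranked first at 35.8 ± 2.12 CPM per kilobase (SD, n = 3) and Slc7a7 second at 26.1 ± 2.24, and neither overlapped its neighbour in the order. Slc6a8 (17.5 ± 0.436), Slc38a2 (17.2 ± 3.62) and Slc3a2 (16.2 ± 0.387) followed, with the libraries of Slc38a2 overlapping those of both others. Slc3a2 did not overlap the next gene, Slc36a2 (15.3 ± 0.397). In control ventricles Slc6a8 was first at 41.9 ± 3.23 and Slc38a10 second at 23.6 ± 0.288, again with no overlap. Slc6a6 (17.7 ± 1.12), Slc43a3 (15.9 ± 2.19) and Slc38a2 (15.8 ± 1.17) came next with overlapping libraries, and Slc38a3 (12.4 ± 1.62) was sixth. Slc7a7, among the 8 highest through its atrial level, was not among the 8 highest there. CUG960 +dox mice kept the same leading pair in each chamber, with Slc38a10 at 47.1 ± 2.99 and Slc7a7 at 34.3 ± 2.80 in atria, and Slc6a8 at 41.8 ± 3.67 and Slc38a10 at 29.1 ± 1.75 in ventricles.

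**Figure D1:**
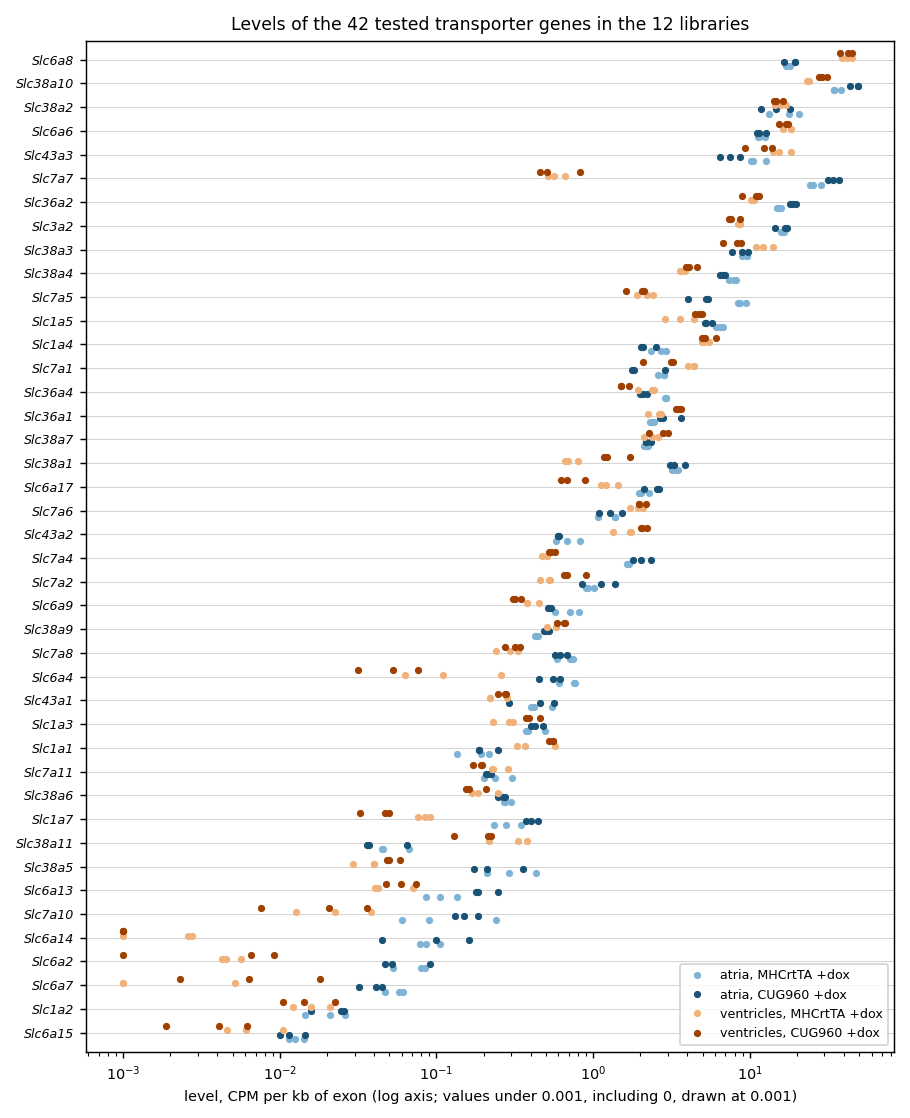
Level of each of the 42 tested transporter genes (rows) in CPM per kilobase of exon on a log axis, with 1 point per library coloured by chamber and genotype and values under 0.001, including 0, drawn at 0.001. Slc6a8 and Slc38a10 sit at the top, and Slc7a7 shows the atrial and ventricular points far apart.

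To ask how atria and ventricles differ in their carriers, the chambers were compared within each genotype with the quasi-likelihood test of edgeR, and P values were adjusted by Benjamini-Hochberg over all genes. A gene was called at an adjusted P value under 0.05 and a change of at least 1.5-fold. In controls 30 of the 42 transporter genes tested were called, 22 higher in atria and 8 higher in ventricles, whereas 34.9% of all 17451 genes tested were called, 18.3% higher in atria and 16.6% higher in ventricles. The median log2 fold change of all genes, atria over ventricles, was 0.03. In CUG960 +dox mice 28 of 42 were called, 21 higher in atria and 7 higher in ventricles, against 33.6% of all genes (17.2% and 16.4%). The median of all genes was 0.01. Slc6a2, Slc6a7, Slc6a14, Slc6a15 and Slc7a10 had at most 11 counts in any ventricular library and entered the chamber tests through their atrial counts alone. The counts over 42 genes include them. Over the 37 genes that could also be tested between genotypes in both chambers, 18 were called higher in atria and 8 higher in ventricles in controls, against 16.7% and 16.5% of all such genes, and 16 and 7 in CUG960 +dox mice, against 15.5% and 16.2%. Those 37 still include Slc38a5, which had 7 to 10 counts in control ventricles and 72 to 153 in control atria. It passed the filter of the control fit through its atrial counts and is among the 18 (log2 fold change 3.07). The split depended on how libraries were scaled. On library totals, which move the median of all genes to 0.49 in controls and 0.40 in CUG960 +dox mice, it became 26 and 4 in controls and 24 and 5 in CUG960 +dox mice. Cell type markers also differed between chambers. Of 7 fibroblast markers, 5 were called higher in atria in controls and 3 in CUG960 +dox mice. They summed to 2369 to 2740 CPM in control atria and 1366 to 1582 CPM in control ventricles. Of 8 endothelial markers, 4 were called lower in atria and 1 higher in controls, and 5 and 1 in CUG960 +dox mice. The part of these cell types in the transporter differences was not tested.

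Leaving aside genes that averaged under 1 CPM in controls, the widest difference belonged to Slc7a7 (chr14:54369442-54417780, minus strand), the y+LAT1 light chain that exchanges cationic for neutral amino acids. Its level in control atria was 80.6, 94.8 and 83.8 CPM in V327, V333 and V334, against 1.86, 1.71 and 2.20 CPM in the ventricles of the same mice. In CUG960 +dox mice it was 123.1, 104 and 113 CPM in the atria of V119, V120 and V123 and 1.51, 1.68 and 2.75 CPM in their ventricles. Every atrial library lay far above every ventricular one. The log2 fold change was 5.48 (standard error 0.12, adjusted P value 6.5e-08, 44.5-fold) in controls and 5.83 (standard error 0.21, adjusted P value 1.1e-07, 56.9-fold) in CUG960 +dox mice. The macrophage and leukocyte markers also stood higher in atria, with 6 of 9 called in each genotype and a summed level of 288 to 636 CPM in control atria against 130 to 162 CPM in control ventricles, and their part in the Slc7a7 difference was not tested.

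Starts annotated by RefSeq on GRCm38.p6 were matched by symbol for 43 of the 61 genes, in 64 windows running from upstream of a start to just past it. They were searched on both strands for TGATGNAA, a core of the amino acid response element through which ATF4 acts, and for AGGTGT, a core bound by cardiac T-box factors. The first stood in 5 of the 64 windows, of Slc1a4, Slc6a21, Slc7a11 and Slc7a7, and in 3.97% of all 32851 windows in the table. The second stood in 9 of the 64 windows and in 13.7% of all. A window of Slc7a7 (chr14:54417895-54418194, minus strand) and that of Slc1a4 (chr11:20332664-20332963, minus strand) are shown because both hold the first core and the genes were called in opposite directions between chambers, Slc7a7 higher in atria and Slc1a4 higher in ventricles. Of the 5 windows of Slc7a7, the one with the most matches is printed. Capitals mark matches on either strand, and no match overlaps another. A match is a description of letters and no evidence of binding.
Slc7a7: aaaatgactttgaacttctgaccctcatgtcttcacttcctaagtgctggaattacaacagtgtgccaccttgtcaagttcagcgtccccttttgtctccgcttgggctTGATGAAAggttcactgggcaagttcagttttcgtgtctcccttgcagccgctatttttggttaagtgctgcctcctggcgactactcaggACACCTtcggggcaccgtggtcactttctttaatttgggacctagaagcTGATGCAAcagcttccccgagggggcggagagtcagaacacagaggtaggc
Slc1a4: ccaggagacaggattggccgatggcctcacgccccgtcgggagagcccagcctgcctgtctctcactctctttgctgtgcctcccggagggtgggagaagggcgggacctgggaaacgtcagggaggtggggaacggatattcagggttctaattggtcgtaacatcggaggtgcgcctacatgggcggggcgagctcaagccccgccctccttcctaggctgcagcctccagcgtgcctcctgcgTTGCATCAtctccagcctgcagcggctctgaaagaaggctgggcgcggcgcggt

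Other carriers above 1 CPM in controls and higher in atria had smaller differences than Slc7a7. Slc6a4, the serotonin reuptake carrier, stood at 3.42, 2.74 and 3.45 CPM in control atria and 1.18, 0.284 and 0.499 CPM in control ventricles. Its log2 fold change was 2.28 (standard error 0.43, adjusted P value 0.0022), the groups did not overlap, and V327 ventricles lay apart from the other 2. Slc38a1 (chr15:96571418-96642913, minus strand), a sodium-coupled importer of glutamine and alanine, stood at 58.0, 54.9 and 59.9 CPM in control atria against 12.01, 11.3 and 13.7 CPM in control ventricles (log2 fold change 2.21, standard error 0.09, adjusted P value 4.7e-07). Slc7a5 (chr8:121881150-121907694, minus strand), the LAT1 light chain for large neutral amino acids, stood at 31.4, 35.2 and 31.9 CPM against 9.001, 7.02 and 8.23 CPM. Its log2 fold change was 2.01 (standard error 0.10, adjusted P value 1.8e-06) with no overlap. Slc7a4, a CAT-like protein of unsettled function, was 6.93 ± 0.0882 CPM in control atria and 2.06 ± 0.0918 CPM in control ventricles (SD, n = 3; log2 fold change 1.74, standard error 0.10, adjusted P value 3.4e-06). Slc3a2 shared the direction at 56.3, 58.8 and 56.6 CPM against 29.6, 30.8 and 30.5 CPM (log2 fold change 0.91, standard error 0.06, adjusted P value 5.2e-06).

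A few SLC6 genes had very low levels that lay higher in atria. They were picked after their values were seen. Slc6a14, a carrier of neutral and cationic amino acids, had 46 to 55 counts in control atria and at most 1 in control ventricles, and 21 to 79 counts in CUG960 atria and 0 in each CUG960 ventricular library. Against a floor of 3 counts per library it was at least 15.8-fold higher in atria in CUG960 +dox mice. Slc6a7, a proline carrier of brain, had 28 to 32 counts in control atria and at most 2 in control ventricles. In CUG960 +dox mice it had 15 to 22 counts in atria and 9, 3 and 1 in the ventricles of V119, V120 and V123. It entered the chamber test through its atrial counts alone, and its call in CUG960 +dox mice was lost without V120. Slc6a2, the noradrenaline carrier of sympathetic nerves, was 0.334, 0.499 and 0.529 CPM in control atria and 0.0270, 0.0284 and 0.0356 CPM in control ventricles. The 6 Schwann cell and neuron markers used, of which Sox10 was the most abundant, summed to 2.24 to 2.82 CPM in control atria and 2.03 to 2.27 CPM in control ventricles.

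Above 1 CPM in controls, the 5 largest differences toward ventricles were those of the creatine carrier, a glutamate carrier, neutral amino acid carriers and a cationic one. These directions did not hold for whole substrate groups. Of 4 glutamate and aspartate carriers tested in controls, 2 were called higher in atria and 1 higher in ventricles, against 18.3% and 16.6% of all genes. The neutral amino acid carrier Slc7a5 was higher in atria, as given above. Slc6a8 stood at 236, 202 and 217 CPM in control ventricles and 89.3, 93.8 and 91.1 CPM in control atria, and its log2 fold change, atria over ventricles, was −1.27 (standard error 0.07, adjusted P value 2.8e-06). Slc1a1, which carries glutamate, aspartate and cysteine, was 4.70, 3.03 and 2.71 CPM in control ventricles and 1.79, 1.11 and 1.60 CPM in control atria (log2 fold change −1.23, standard error 0.26, adjusted P value 0.0037). Slc43a2, the LAT4 carrier of branched-chain amino acids, was 17.5, 13.4 and 17.3 CPM against 6.90, 5.79 and 8.23 CPM (log2 fold change −1.22, standard error 0.15, adjusted P value 0.00022). None of the 3 genes overlapped between chambers. Slc1a4, the ASCT1 exchanger of alanine, serine and cysteine, was 21.6, 19.4 and 19.95 CPM against 9.16, 11.5 and 10.7 CPM (log2 fold change −0.97, standard error 0.10, adjusted P value 7.7e-05). Slc7a1 (chr5:148327410-148399904, minus strand), the CAT1 carrier of arginine, lysine and ornithine, was 50.8, 46.5 and 50.9 CPM against 32.8, 32.6 and 30.2 CPM (log2 fold change −0.64, standard error 0.07, adjusted P value 8.0e-05). On library totals the Slc1a4 and Slc7a1 differences kept their sign but no longer passed both thresholds, at −0.51 and −0.19.

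By role, 3 of the 5 light chains that could be tested in both chambers were called higher in atria in controls, where 16.7% of all such genes were, and Slc7a6 was called higher in ventricles (−0.60, adjusted P value 0.0045). The Slc7a6 call was just past 1.5-fold and was lost in 7 of 13 other settings, among them without V327 (−0.56), without V334 (−0.58) and on library totals (−0.14, adjusted P value 0.40). The sixth light chain tested, Slc7a10, had 3 to 9 counts in control ventricles, and its call as higher in atria was lost without V333 (adjusted P value 0.10). The SLC38 family was mixed, with 4 of 10 called higher in atria and Slc38a11 called higher in ventricles (−2.57, adjusted P value 0.00014). Over all genes tested in controls, 18.3% were called higher in atria and 16.6% higher in ventricles. Of the 4, Slc38a5 had 7 to 10 counts in control ventricles and passed the filter through its atrial counts. Slc38a10, also of the 4, was just past 1.5-fold (0.59), and its call was lost in 4 of 13 other settings, among them without V327. Of the proton-coupled SLC36 genes, none of 3 was called in controls, where 34.9% of all genes were. Neighbouring genes did not move as one. Slc38a1, Slc38a2 (chr15:96687392-96699730) and Slc38a4 (chr15:96994820-97055956) lie side by side on one strand of chromosome 15, and their log2 fold changes in controls were 2.21, 0.12 (adjusted P value 0.50) and 1.06 (adjusted P value 7.4e-06).

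The chamber differences of the 2 genotypes were measured in separate mice. Over the 37 transporter genes that could be tested in both chambers, 80.8% of those called in controls were also called in CUG960 +dox mice, and 91.3% of those called in CUG960 +dox mice were called in controls. Over all such genes these shares were 77.9% and 81.4%. The 21 shared genes, which include Slc38a5 with its low counts in control ventricles, had the same direction in both. Over all 42, Slc1a3, Slc1a5, Slc6a6, Slc7a1 and Slc7a2 were called in controls alone, and Slc36a2, Slc43a3 and Slc6a15 in CUG960 +dox mice alone, a contrast that is no test of a difference between genotypes. With the mouse as a replicate block, Slc1a3 in controls fell just short of the 1.5-fold limit (log2 fold change 0.58, adjusted P value 0.026), and Slc6a15 in CUG960 +dox mice missed the adjusted P value threshold (1.56, adjusted P value 0.050).

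**Figure D2:**
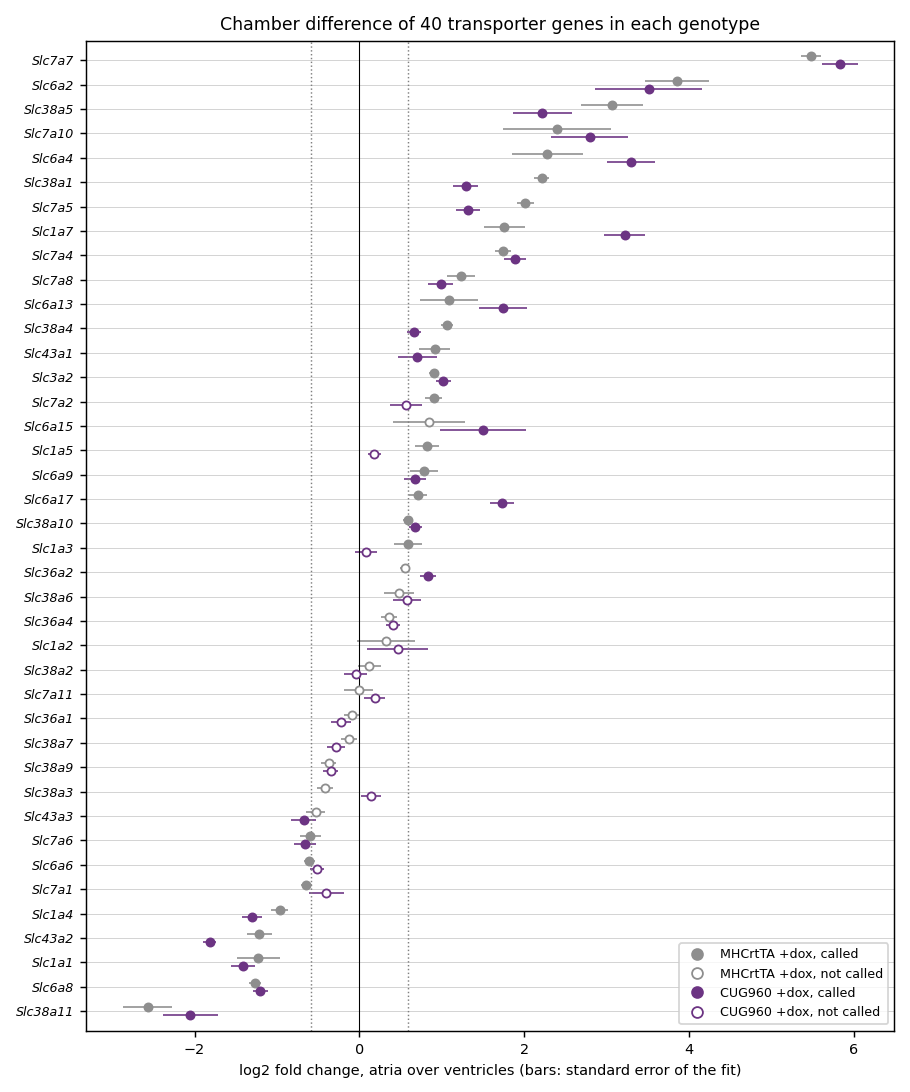
Log2 fold change, atria over ventricles (horizontal axis), with its standard error for 40 transporter genes (rows) in MHCrtTA +dox controls (grey) and CUG960 +dox mice (purple), filled where called, with dotted lines at 1.5-fold. Slc6a14 and Slc6a7, at or near 0 counts in ventricles, are left out. Slc7a7 lies farthest to the right at 5.48 and 5.83, and Slc38a11 farthest to the left.

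To ask what expanded CUG RNA does to these genes, the genotypes were compared within each chamber. Few transporter genes passed. In atria 1 of 42 tested was called, a decrease, where 5.49% of all 17650 genes tested were called, 3.37% up and 2.12% down. In ventricles 4 of 37 were called, 1 up and 3 down, where 4.75% of all 16909 genes were called, 3.0% up and 1.76% down. On library totals, which moved the ventricular median of all genes from −0.01 to 0.10, 4 genes were also called, 3 up and 1 down. Slc38a1 and Slc6a17 were among them with their direction unchanged, Slc1a3 (0.66) and Slc7a2 (0.66) were added, and Slc38a3 and Slc7a1 were lost. Groups that did not overlap occurred for 15 of 42 transporter genes in atria (35.7%) against 35.7% of all genes, and for 19 of 37 in ventricles (51.4%) against 31.2%. The 19 include Slc38a5, with 7 to 10 counts in control and 14 to 19 in CUG960 ventricles, which passed the filter there through the CUG960 libraries. The median log2 fold change of the transporter genes was −0.04 in atria and 0.04 in ventricles, and that of all genes was −0.01 in each.

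Slc7a5 was the transporter gene called as decreased in atria. Its level was 31.4, 35.2 and 31.9 CPM in the control atria of V327, V333 and V334 and 14.9, 19.4 and 20.02 CPM in the CUG960 atria of V119, V120 and V123. The groups did not overlap, and the highest CUG960 library lay well under the lowest control. The log2 fold change was −0.87 (standard error 0.11, adjusted P value 0.0026), a 1.82-fold decrease. In ventricles Slc7a5 stood at 9.001, 7.02 and 8.23 CPM in controls and 6.02, 7.64 and 7.88 CPM in CUG960 +dox mice, and the groups overlapped (log2 fold change −0.18, standard error 0.14, adjusted P value 0.47). Its heavy chain Slc3a2 was 57.2 ± 1.37 CPM in control atria and 57.1 ± 5.46 CPM in CUG960 atria (log2 fold change −0.01, standard error 0.08, adjusted P value 0.96). In ventricles Slc3a2 was 30.3 ± 0.618 and 27.9 ± 2.46 CPM (log2 fold change −0.13, standard error 0.08, adjusted P value 0.39). Several marker lists moved in the same direction as Slc7a5 in atria. The 8 endothelial markers, led by Fabp4, summed to 686 to 825 CPM in control and 545 to 639 CPM in CUG960 atria. Their median log2 fold change was −0.41, with Pecam1 alone called (−0.71). Medians were also under 0 for other lists, among them fibroblasts (−0.29), ventricular cardiomyocytes (−0.55) and skeletal muscle (−0.88). Those of smooth muscle (0.04), atrial cardiomyocytes (0.01) and Schwann cells and neurons (0.02) were not. The part of any of these cell types in the Slc7a5 decrease was not tested.

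Slc38a1 was the transporter gene that rose in ventricles. Control ventricles of V327, V333 and V334 had 12.01, 11.3 and 13.7 CPM, and CUG960 ventricles of V119, V120 and V123 had 21.3, 20.1 and 29.7 CPM. All CUG960 libraries lay above all controls, with V123 the highest. The log2 fold change was 0.93 (standard error 0.15, adjusted P value 0.0064), a 1.91-fold increase that still left ventricles below atria. In atria the gene was 57.6 ± 2.51 CPM in controls and 58.6 ± 6.82 CPM in CUG960 +dox mice, and the groups overlapped (log2 fold change 0.02, standard error 0.09, adjusted P value 0.92). The sign of that atrial value turned without V333 or without V123. The 6 atrial cardiomyocyte markers summed to 238 CPM in V120, 319 CPM in V123 and 97.6 CPM in V119 against 85.7, 84.6 and 161.3 CPM in controls, but their members moved differently. Nppa, the atrial natriuretic peptide, was called as 2.46-fold higher and made up 225 CPM of the sum in V120. Bmp10, an atrial growth factor, was called at −4.06, from 2.42, 2.38 and 3.74 CPM in controls to 0.0344, 0.276 and 0.207 CPM. Myl7, an atrial myosin light chain, was 0.192 CPM in V119, 0.305 CPM in V120 and 55.8 CPM in V123 against 4.95 to 19.3 CPM in controls, and Myl4 and Sln likewise lay under the controls in V119 and V120 and above them in V123. No marker was at 0. The part of atrial tissue or of these markers in the Slc38a1 increase was not tested.

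A second SLC38 carrier went the other way. Slc38a3 (chr9:107650634-107669530, minus strand), a sodium-coupled carrier of glutamine and histidine, was 74.7, 64.2 and 57.8 CPM in control ventricles and 35.4, 43.6 and 46.3 CPM in CUG960 ventricles. These ranges did not overlap. Its log2 fold change was −0.65 (standard error 0.12, adjusted P value 0.012), a 1.57-fold decrease. In atria it was 50.4, 50.5 and 46.9 CPM in controls and 40.9, 47.1 and 51.6 CPM in CUG960 +dox mice, which overlapped (log2 fold change −0.09, adjusted P value 0.53). The ventricular change dropped under 1.5-fold without V327 or without V119, at −0.55 in each fit, and on library totals, also at −0.55.

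Slc6a17 (chr3:107467543-107518018, minus strand), a vesicular neutral amino acid carrier known from neurons, fell in ventricles from 14.8, 11.6 and 12.4 CPM to 9.16, 6.98 and 6.39 CPM. The ranges did not overlap. The log2 fold change was −0.79 (standard error 0.15, adjusted P value 0.012), a 1.73-fold decrease, and its adjusted P value was 0.054 without V120. In ventricles the 6 Schwann cell and neuron markers summed to 2.03 to 2.27 CPM in controls and 0.969 to 2.13 CPM in CUG960 +dox mice. None was at 0 in all libraries, 0 of the 3 that could be tested were called, and Sox10 was at −0.56 (adjusted P value 0.29). Their part in the change was not tested. In atria Slc6a17 was 23.3, 20.1 and 20.9 CPM in controls and 26.5, 21.8 and 27.2 CPM in CUG960 +dox mice (log2 fold change 0.23, standard error 0.10, adjusted P value 0.17).

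Slc7a1 was the third gene to fall in ventricles, from 50.8, 46.5 and 50.9 CPM to 37.4, 36.5 and 24.0 CPM. The groups did not overlap, and V123 lay lowest. Its log2 fold change was −0.60 (standard error 0.15, adjusted P value 0.034), a 1.52-fold decrease just past the limit, and it failed a threshold in 5 of the 6 fits that left out 1 mouse and on library totals. Without V123 it was −0.43. In atria 2 CUG960 libraries, V119 at 20.4 CPM and V123 at 21.2 CPM, lay under the controls at 32.8, 32.6 and 30.2 CPM, while V120 lay above them at 33.3 CPM. The atrial log2 fold change was −0.36 (standard error 0.17, adjusted P value 0.20), and without V120 it was −0.62 (adjusted P value 0.0057).

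**Figure D3:**
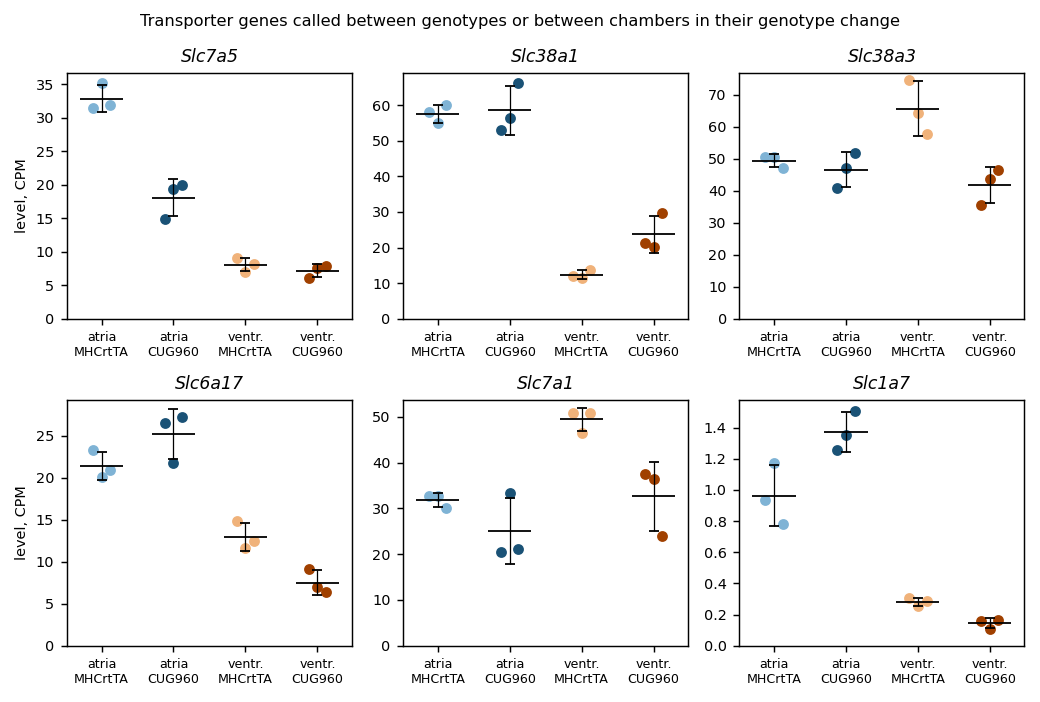
Level in CPM (vertical axis, from 0) of the 6 transporter genes called between genotypes or for a genotype difference between chambers, with 1 point per mouse in each of the 4 groups, black lines at the mean and bars of 1 SD. Slc7a5 is lower in CUG960 than in control atria with no overlap, Slc38a1 is higher in CUG960 than in control ventricles, and Slc38a3, Slc6a17 and Slc7a1 are lower there.

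Smaller changes passed the adjusted P value but not the 1.5-fold limit, and the genes are given here after their values were seen. In atria 6 such genes joined Slc7a5, so that 7 of 42 passed the adjusted P value alone, where 14.6% of all genes did. The increases were Slc38a10 (0.39), Slc7a7 (0.39) and Slc36a2 (0.29), which are 3 of the 8 highest transporter genes in controls. The decreases were Slc43a3 (−0.57), the proline and tryptophan carrier Slc36a4 (−0.48) and the ASCT2 glutamine exchanger Slc1a5 (−0.26). In ventricles 4 genes joined the called ones, so that 8 of 37 passed, where 9.94% of all genes did. Slc7a2, the CAT2 carrier of cationic amino acids, stood at 0.56, the lysosomal and plasma membrane carrier Slc36a1 at 0.47, Slc38a10 at 0.30 and Slc36a4 at −0.53. Adjusted P values of these 10 values ran from 0.0032 for Slc36a4 in atria to 0.042 for Slc7a2 in ventricles. Slc36a4 was 18.9, 19.0 and 19.2 CPM in control and 13.1, 13.6 and 14.5 CPM in CUG960 atria, and 15.5, 12.7 and 15.9 CPM in control and 11.0, 9.80 and 9.88 CPM in CUG960 ventricles. Slc38a10 was 245, 222 and 222 CPM in control and 314, 313 and 281 CPM in CUG960 atria, and 154, 151 and 150 CPM in control and 185, 199 and 177 CPM in CUG960 ventricles. Neither gene overlapped between genotypes in either chamber. The largest atrial log2 fold change, that of Slc6a13, passed no adjusted P value threshold (0.89, standard error 0.26, adjusted P value 0.058). That gene was low, with 38 to 69 counts in control and 72 to 103 in CUG960 atria, and the groups did not overlap.

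None of the 8 genes highest over both chambers of controls was called between genotypes in either chamber. Over all genes 5.49% were called in atria and 4.75% in ventricles, so none of 8 is near that background. In control ventricles alone Slc38a3, called as decreased there, was sixth. Of those 8, Slc38a10, Slc7a7, Slc36a2 and Slc43a3 passed the adjusted P value as given above. Slc6a8 had a log2 fold change of 0.06 (standard error 0.07) in atria and −0.01 (standard error 0.09) in ventricles, Slc6a6 of 0.00 (standard error 0.07) and −0.10 (standard error 0.08), and Slc38a2 of −0.22 (standard error 0.18) and −0.06 (standard error 0.08). The adjusted P values of these 6 values lay between 0.46 and 0.98. By role, none of the glutamate and aspartate carriers, of which 4 were tested, was called between genotypes in either chamber, nor was any of the 3 SLC43 or the 3 proton-coupled genes. In sets this small, that is near the same background of 5.49% and 4.75%. Strand use in the counting is not given in the sources used here, so reads of Slc36a1 and Slc7a6 cannot be told apart from those of opposite-strand entries such as Slc36a1os and Slc7a6os.

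**Figure D4:**
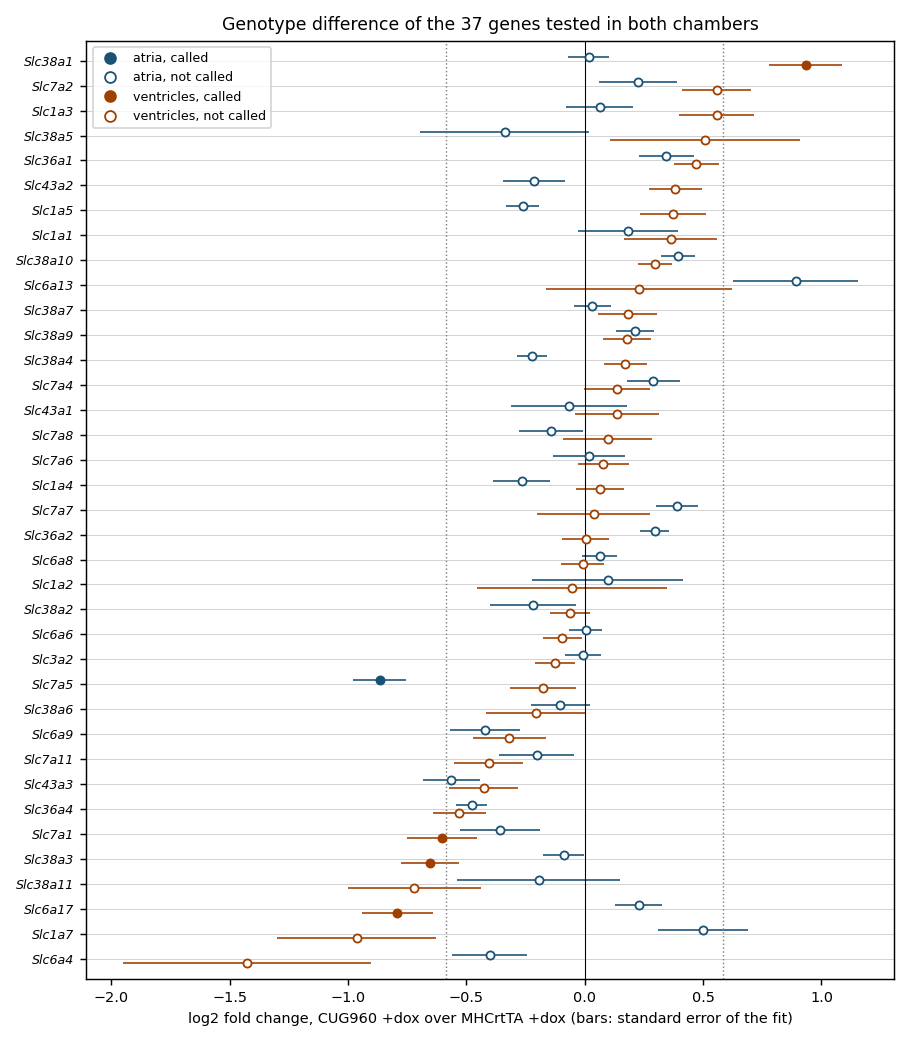
Log2 fold change, CUG960 +dox over MHCrtTA +dox (horizontal axis), with its standard error for the 37 transporter genes (rows) tested in both chambers, in atria (blue) and ventricles (orange), filled where called, with dotted lines at 1.5-fold. Filled points are Slc7a5 in atria at −0.87 and, in ventricles, Slc38a1 at 0.93 and Slc7a1, Slc38a3 and Slc6a17 between −0.60 and −0.79.

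Whether a genotype difference itself differed between chambers was tested as an interaction over all 12 libraries, called at an adjusted P value under 0.05. It passed for 3 of 42 transporter genes, 1 with the ventricular change above the atrial and 2 with it below, where 1.38% of all 18327 genes passed, 0.693% above and 0.688% below. For Slc38a1 the log2 change in ventricles minus that in atria was 0.91 (standard error 0.19, adjusted P value 0.037). For Slc6a17 it was −1.02 (standard error 0.19, adjusted P value 0.026). Slc1a7, the EAAT5 glutamate carrier known from retina, gave −1.47 (standard error 0.32, adjusted P value 0.046). That gene was low, at 0.938, 1.17 and 0.784 CPM in control and 1.25, 1.35 and 1.51 CPM in CUG960 atria, and 0.306, 0.255 and 0.285 CPM in control and 0.158, 0.109 and 0.167 CPM in CUG960 ventricles. Its CUG960 libraries lay above the controls in atria and below them in ventricles, although neither change was called by itself (0.50, adjusted P value 0.12, and −0.96, adjusted P value 0.11) when each chamber was fitted separately. In a single fit of all 12 libraries the ventricular change was called (−0.97, adjusted P value 0.023), 1 of 6 ventricular calls there, and the ventricular libraries held 15 to 34 counts. The other call added by that fit was Slc6a4 (−1.43, adjusted P value 0.047). Fitted within ventricles, Slc6a4 was at −1.43 (standard error 0.52, adjusted P value 0.12), with 1.18, 0.284 and 0.499 CPM in controls and 0.344, 0.240 and 0.144 CPM in CUG960 +dox mice, and the groups overlapped.

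Atria and ventricles of one mouse share its number. With the mouse as a replicate block 5 transporter genes passed. They were Slc38a1 (0.90, adjusted P value 0.0062), Slc6a17 (−1.03, 0.011), Slc38a3 (−0.56, 0.029), Slc7a5 (0.69, 0.040) and Slc43a2 (0.59, 0.040), while Slc1a7 did not (−1.49, adjusted P value 0.078). Without the block, Slc7a5 was at 0.69 (adjusted P value 0.12) and Slc38a3 at −0.57 (adjusted P value 0.15). Each fit that left out both libraries of 1 mouse called 0 or 1 transporter gene. Slc38a1 passed only without V123, Slc6a17 only without V119, and Slc1a7 in none of the 6.

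Genes that act around the carriers were read from lists. Amino acid shortage activates the kinase GCN2, phosphorylated eIF2 raises translation of ATF4, and ATF4 in turn switches on amino acid synthesis and several carriers. Of 31 ATF4 response genes tested, 2 rose and none fell in atria, and 4 rose and none fell in ventricles, where 3.37% and 3.0% of all genes rose. The shares of all genes that fell were 2.12% in atria and 1.76% in ventricles, and these 4 shares are the background of every list of genes around the carriers. In atria these were Aldh1l2, a mitochondrial folate enzyme (log2 fold change 1.22, adjusted P value 7.3e-05), and Psat1 of serine synthesis (0.64, adjusted P value 0.020). In ventricles they were Gdf15, a secreted stress hormone (1.36, 0.030), Mthfd2, a mitochondrial folate enzyme (0.95, 0.018), Sesn2, a leucine sensor (0.72, 0.0056), and Eif4ebp1, a brake on translation (0.63, 0.0055). The median of the list was −0.07 in atria and 0.14 in ventricles. Mthfd2 stood at 2.76, 2.40 and 2.47 CPM in control and 3.55, 6.26 and 4.95 CPM in CUG960 ventricles, and at 2.78 to 3.32 CPM in control and 1.94 to 2.72 CPM in CUG960 atria. Psat1 did the reverse, at 5.47, 5.58 and 7.53 CPM in control and 9.73, 8.96 and 10.4 CPM in CUG960 atria, and at 2.27, 2.01 and 2.62 CPM in control and 1.76, 1.63 and 1.97 CPM in CUG960 ventricles. Both differed between chambers by the interaction test (1.38, adjusted P value 0.029, and −1.02, adjusted P value 0.032). Carriers known as ATF4 targets, named after their values were seen, were not called as increased. Slc7a5 and Slc7a1 were called as decreased in 1 chamber each, as given above. Slc7a11, the cystine and glutamate exchanger, stood at −0.20 in atria and −0.41 in ventricles (adjusted P values 0.43 and 0.12), and Slc3a2 and Slc38a2 are given above. None of the 9 eIF2 kinase and phosphatase genes was called in either chamber.

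Among enzymes of glutamine, glutamate and alanine metabolism, 1 gene rose in both chambers. Abat, the transaminase that breaks down GABA, was 47.4, 37.9 and 52.4 CPM in control and 228, 214 and 182 CPM in CUG960 ventricles (log2 fold change 2.17, standard error 0.13, adjusted P value 2.5e-05). In atria it was 145, 136 and 128 CPM in control and 219, 223 and 215 CPM in CUG960 libraries (0.68, standard error 0.06, adjusted P value 0.00057), and the chambers differed in this change by 1.49 (adjusted P value 0.00075). No group overlapped its control. Of the 17 genes of this list tested in ventricles 1 rose and 2 fell, the alanine transaminase Gpt (−0.63, adjusted P value 0.0054) and the proline dehydrogenase Prodh (−0.62, adjusted P value 0.0042), and of 18 tested in atria Abat alone was called. The interaction also passed for Gpt2, the mitochondrial alanine transaminase, at −0.68 (adjusted P value 0.0080), and for Prodh at −0.59 (adjusted P value 0.038).

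Among 36 genes of amino acid sensing by mTORC1, Rragd, a Rag GTPase, rose in atria (0.65, adjusted P value 0.0056), and none was called in ventricles. Sesn2, which also belongs to this pathway, was counted with the ATF4 response genes. Among carriers of other families, Slc25a13, the mitochondrial aspartate and glutamate exchanger, rose in atria (0.74, adjusted P value 0.0018) as 1 of 15 tested. In ventricles 2 of 16 fell, the aromatic amino acid carrier Slc16a10 (−0.71, adjusted P value 0.0012) and the lysosomal peptide carrier Slc15a3 (−0.62, adjusted P value 0.026). Slc16a10 was 33.9, 35.0 and 37.0 CPM in control and 23.3, 21.1 and 20.6 CPM in CUG960 ventricles. None of the 12 trafficking partners tested, such as the chaperone Bsg, was called in either chamber.

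Cell type markers shifted in places between genotypes. Besides Nppa and Bmp10 in ventricles, Pecam1 in atria and the sums above, the ventricular cardiomyocyte marker Hey2 stood at −0.67 and the skeletal muscle markers Ckm and Tnnt3 at −0.60 and −2.05 in atria, the smooth muscle marker Tagln stood at 1.21 in atria and −0.63 in ventricles and Myh11 at −0.65 in ventricles, the endothelial markers Cldn5 and Fabp4 at −0.62 and −0.60 in ventricles, and the adipocyte marker Plin1 at −1.86 in ventricles, all called. None of the 7 fibroblast or 9 macrophage and leukocyte markers was called in either chamber. The 8 endothelial markers summed to 1289 to 1473 CPM in control and 938 to 1048 CPM in CUG960 ventricles, and their part in the ventricular decreases of Slc38a3, Slc6a17 and Slc7a1 was not tested.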

How the data were processed

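Poly(A) RNA of each chamber was sequenced for 3 mice per genotype. Per the labels and the study's methods, the authors prepared stranded Illumina libraries, used mm10 (GRCm38) and quantified genes with RSEM 1.3.1. The deposited values are expected counts per gene, not normalized, and were rounded to whole numbers here. Libraries held 116127966 to 160676189 counts. No pooled or unmapped column was present.

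Differential expression was tested with edgeR 4.0.16 in R 4.3.3 (quasi-likelihood test, TMM scaling, filterByExpr, Benjamini-Hochberg adjustment over all genes tested), within each chamber between genotypes, within each genotype between chambers, and as an interaction. The thresholds were an adjusted P value of 0.05 and 1.5-fold (none on fold for the interaction). The standard error is the log2 fold change divided by the root of F. Levels are CPM on TMM sizes over the 12 libraries, and per-kilobase levels divide by the merged exon length in GENCODE M21. The code was tested on simulated data. Members and lists were chosen with earlier results of these data known. One gene of the Schwann cell and neuron marker list is not reported here, and the list's values leave it out. Genes named were the called members, the 5 largest chamber differences in each direction with a mean of at least 1 CPM in controls, the 8 highest per kilobase, both heavy chains and, per list, at most 6 called genes. DESeq2 1.42.0, other scalings, filters and fold limits, leaving out each mouse and the mouse as block were tried. Scaling on library totals was added after seeing the data. Pairing comes from the mouse number shared by both chambers. Deviations from group means of the same mouse correlated at 0.047 to 0.285, and 5 of 6 mice correlated best with themselves. Replicates are separate mice, and no 2 libraries were duplicates.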

Additional observations from a re-analysis of the deposited data

Results flagged for a closer look

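In 3 transporter genes the genotype change differed between the chambers by the interaction test of edgeR. The log2 change in ventricles minus that in atria was −1.02 for Slc6a17 (adjusted P value 0.026), 0.91 for Slc38a1 (adjusted P value 0.037) and −1.47 for Slc1a7 (adjusted P value 0.046). Slc6a17 and Slc1a7 stood lower in all 3 CUG960 ventricular libraries than in any control, and Slc38a1 stood higher in all 3. Of the 3 calls, those of Slc6a17 and Slc38a1 passed with the mouse as a replicate block and that of Slc1a7 did not (adjusted P value 0.078). The Slc1a7 call was lost in 9 of 13 other settings, among them library totals and no filter on low counts. The calls of Slc6a17 and Slc38a1 were each lost in 5 of the 6 fits that left out 1 mouse (adjusted P values up to 0.11 and 0.16), and that of Slc1a7 in all 6 (up to 0.20). Slc1a7 rested on 15 to 34 counts per ventricular library. The cause of these differences was not tested.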

How the results depend on the processing

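Against 1 transporter gene called in atria between genotypes, 2 were called by DESeq2 (1 higher and 1 lower), 2 with at least 10 counts in every library, 7 with no fold limit, 0 with a log2 limit of 1.5, and 1 to 3 without 1 mouse. Against 4 in ventricles, 8 were called with no fold limit, 0 with a log2 limit of 1.5 and 2 to 4 without 1 mouse, the lowest without V120. Library totals also gave 4 calls there, 3 higher and 1 lower in place of 1 and 3, of which 2 genes were shared. Against 3 for the interaction, 8 passed by DESeq2, 5 with the mouse as replicate block and 0 to 1 without 1 mouse (0 without V333, V334 or V120). Against 30 and 28 between chambers in control and CUG960 +dox mice, a log2 limit of 1.5 left 12 and 14, and leaving out 1 mouse gave 27 to 28 and 26 to 28. The small atrial value of Slc38a1 ran from −0.0845 without V123 to 0.0819 without V119, and it was also under 0 without V333 (−0.0159). Slc7a5 in atria and Slc38a1 in ventricles kept their calls in every other fit than the log2 limit of 1.5. The mouse block could apply to the chamber and interaction comparisons alone. Between chambers it changed no count of transporter calls by over 1.5 times.

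Over all genes, calls moved from 969 to 2573 (no fold limit) and 216 (log2 limit of 1.5, 73.6% of them up against 61.3%) in atria, from 804 to 1680 and 199 in ventricles, from 253 to 660 (DESeq2) and 74 to 131 (without 1 mouse) for the interaction, and from 6098 to 9726 and 2233 in controls and 5900 to 9517 and 2200 in CUG960 +dox mice between chambers. On library totals 80.6% of ventricular calls were up against 63.1%, and 82.7% and 79.7% of chamber calls were higher in atria against 52.4% and 51.2%. Low counts limited 19 transporter genes, which were not tested. In ventricles they also limited, among others, Slc1a7, Slc38a5, Slc6a2, Slc6a7, Slc6a14, Slc6a15 and Slc7a10.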
